A study of Mus musculus with 6 samples.

Results

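The mouse serpin genes were followed in sphere cultures of a mammary tumour model. Every gene whose symbol starts with Serpin was taken, apart from Serpinh1, a collagen chaperone, and Serping1, the inhibitor of the first complement component, which left 61 genes of the 24063 symbols in a complete table. Each gene is represented by its transcript with the highest mean count. Of the 61 genes, 21 had enough counts to be tested, 28 had some counts but too few, and 12 had no count in any library.

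Serpins are protease inhibitors that share a fold with an exposed loop, the reactive centre loop, which the target protease cuts as if it were a substrate. The cut makes the serpin change shape and drag the protease along, which locks the pair together. The letter after the name is the clade: clade A members such as antitrypsin and antichymotrypsin are mostly secreted by the liver, clade B members mostly stay inside the cell and guard it against its own or neighbouring proteases, and clades C, D, E and F hold the inhibitors of clotting, of the plasminogen activators and of plasmin. Some members have lost the inhibitor function, among them maspin (Serpinb5), known from mammary epithelium, and pigment epithelium-derived factor (Serpinf1).

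The libraries were 3 EL and 3 PT cultures of MMTV-HER2/Neu mice on the FvB strain, in which the mammary tumour virus promoter drives the Neu oncogene mainly in mammary epithelium. All animals carry the transgene, and no wild-type group was analysed. EL cells came from mice of 14 to 18 weeks with no palpable tumour, and PT cells from mice older than 20 weeks with at least 1 primary tumour, so age and stage cannot be told apart. The tissue label of the EL group reads "mammary lung" and that of the PT group breast tumour, and both groups are labelled as breast cancer cells. Cells were dissociated and grown for 7 days in mammosphere medium on ultra-low adhesion plates with no sort named, and polyadenylated RNA was sequenced. The labels do not tell whether replicates are separate mice. The p-values therefore rest on how far the sequenced libraries scatter, and that scatter may be technical only.

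Library totals ran from 69759793 to 85126630 counts, and the table of EL replicate 1 breaks off after 27664 of 33068 rows, so its total is a lower limit. Levels are CPM (counts scaled to a common TMM-adjusted library size) unless RPKM, the same divided by transcript length in kilobases, is named. All 10 luminal epithelial markers were tested and higher in PT, with a summed level of 2566 to 2626 CPM in EL and 8837 to 9212 CPM in PT. All 14 fibroblast markers, all 12 endothelial markers and all 7 pericyte markers were lower in PT, and the fibroblast sum was 67902 to 72110 CPM in EL against 668 to 799 CPM in PT. Among 9 lung epithelial markers, 4 were tested and 3 of these were higher in PT, with a list sum of 16.6 to 18.7 CPM in EL and 123 to 135 CPM in PT, most of it Sftpd and Foxj1, while Sftpa1, Scgb1a1 and Nkx2-1 were at 0 in every library. No hepatocyte marker was tested, and their sum was 0.529 to 0.872 CPM in EL and 0.078 to 0.131 CPM in PT. The part of these cell types in the serpin differences was not tested, and in bulk RNA fewer cells of a type and less RNA per cell cannot be told apart.

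Nearly every serpin transcript that could be tested was lower in PT than in EL spheres. With all 6 libraries, 18 of 20 tested genes fell and 1, Serpinb5, rose (edgeR quasi-likelihood test, Benjamini-Hochberg adjusted p under 0.05). Across all 13844 genes tested, 40.8% were called lower and 39.9% higher, so 80.7% were called in 1 direction or the other. The gene that was not called was Serpine3. Serpina3h, whose row is absent from the incomplete table, was tested in the other 5 libraries and fell as well, beside 40.2% called lower among 15406 genes there.

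The sizes of the falls were uneven. Among the 20 genes tested in 6 libraries, 16 were called lower by more than 2-fold, beside 19.4% of all genes, and 9 by more than 16-fold, beside 6.98% of all genes. The median log2 fold change (PT minus EL) of the 21 tested genes was -3.57, and that of all genes was 0.0049. The groups did not overlap for 19 of the 20 genes, beside 82.7% of all genes. In 18 of them every EL library was above every PT library, beside 41.7% of all genes. These counts cover members that passed the filter on low values. Of them, 3 (Serpina3c, Serpina3f and Serpinb6c) had a mean count under 10 in PT, so they passed through EL. Serpinb1a (9, 12 and 11 counts in PT), Serpinb2 (10, 27 and 8) and Serpinb9b (15, 25 and 11) missed the filter limit in at least 1 PT library. They too passed through EL. Serpina3c, Serpina3f, Serpinb1a and Serpinb2 are among the genes called lower by more than 16-fold.

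**Figure D1:**
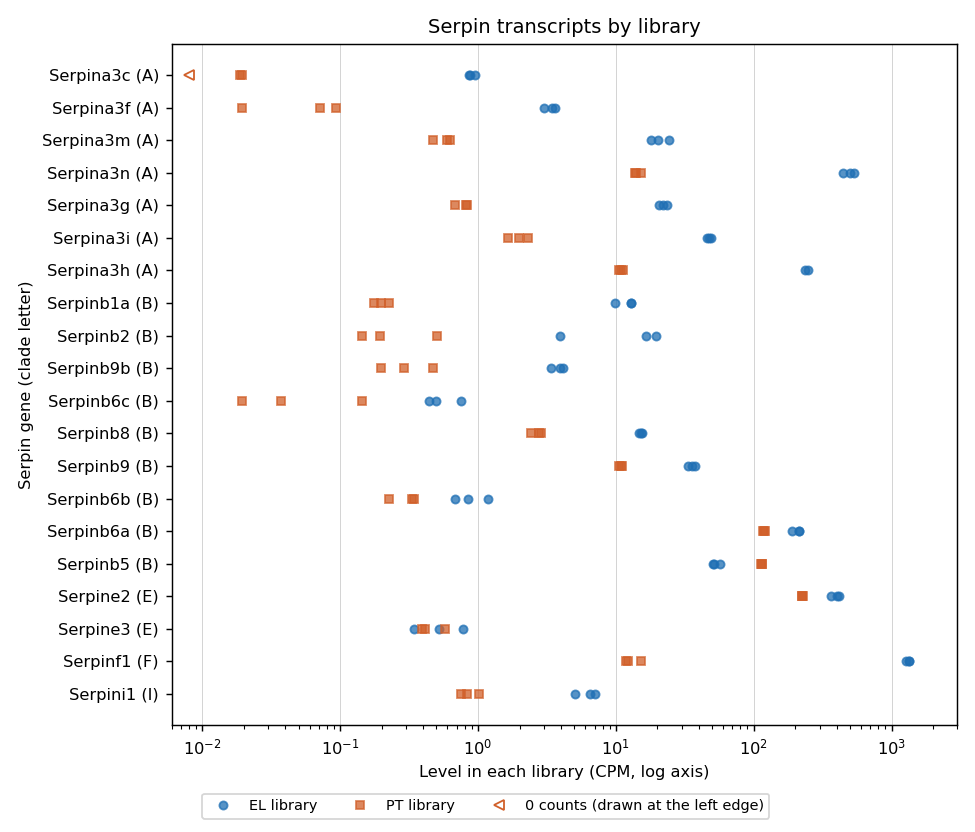
Level of 20 tested serpins in every library, in CPM on a log axis, with the clade letter after the symbol; circles are EL and squares PT libraries, and an open triangle marks 0 counts. EL lies to the right of PT for all genes shown except Serpinb5, where PT lies to the right, and Serpine3, where the groups overlap.

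Clade F held the highest serpin transcript of the EL spheres. Serpinf1 (chr11:75410029-75422623, mm10) encodes pigment epithelium-derived factor, a secreted protein known to restrain blood vessel growth. It measured 1331, 1274 and 1343 CPM in EL replicates 1 to 3 and 12.2, 11.9 and 15.2 CPM in PT replicates 1 to 3. Each EL library stood far above every PT library. The mean was 1316 ± 37.2 CPM in EL and 13.1 ± 1.83 CPM in PT (SD, n = 3 each), a log2 fold change of -6.65 (SE 0.07, edgeR adjusted p = 3.66e-16). It was 100.4-fold lower, the lowest fitted value of any tested member. The other gene of the clade, Serpinf2, which encodes the plasmin inhibitor alpha-2-antiplasmin, had 4, 7 and 7 counts in EL and 8, 0 and 6 in PT and was not tested.

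Clade A was carried by the Serpina3 genes, a group that is expanded in the mouse and related to the single human antichymotrypsin gene. All 7 tested genes of the clade were of this group and all fell, with log2 fold changes from -5.89 to -4.47 and a median of -5.10. Of all genes tested, 40.8% were called lower with 6 libraries and 40.2% with 5 libraries. Serpina3c and Serpina3f passed the filter on low values through EL. The 7 tested genes lie together with 17 untested members in a cluster of 24 serpin genes on chromosome 12 (chr12:103616675-104414334, mm10). The fold changes of the tested genes spanned a narrower range than their levels in EL, which ran from 0.896 CPM for Serpina3c to 493 CPM for Serpina3n. How alike the decreases are was not tested.

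Serpina3n (chr12:104406646-104414334), the main member of the group, is a secreted acute-phase inhibitor of chymotrypsin-like proteases. It measured 444, 497 and 537 CPM in EL and 13.9, 14.0 and 15.1 CPM in PT. All EL libraries were high, and replicate 1 was the lowest of them. The mean went from 493 ± 46.3 to 14.3 ± 0.685 CPM (SD, n = 3 each), a log2 fold change of -5.10 (SE 0.07, edgeR adjusted p = 1.82e-15).

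Serpina3h (chr12:104247896-104254405), counted on a RefSeq transcript of the non-coding type, was scaled within the 5 complete tables. It measured 236 and 247 CPM in EL replicates 2 and 3 and 10.6, 10.8 and 11.3 CPM in PT. Both EL libraries lay far above every PT library, and 85.5% of the genes tested in those tables had groups that do not overlap. Its log2 fold change was -4.47 (SE 0.04, edgeR adjusted p = 2.2e-30).

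The next levels belonged to Serpina3i, Serpina3g and Serpina3m. Serpina3i (chr12:104263045-104269509) measured 47.1, 45.7 and 48.7 CPM in EL and 2.30, 1.65 and 1.99 CPM in PT, with a log2 fold change of -4.57 (SE 0.08). Serpina3g, known for inhibiting lysosomal cathepsins inside lymphocytes, measured 21.8, 20.5 and 23.4 CPM in EL and 0.839, 0.824 and 0.683 CPM in PT, with a log2 fold change of -4.81 (SE 0.10). Serpina3m measured 17.9, 20.3 and 24.4 CPM in EL and 0.468, 0.599 and 0.629 CPM in PT, with a log2 fold change of -5.19 (SE 0.16). None of these 3 genes had a PT library near an EL library, and their edgeR adjusted p-values were 1.55e-14, 1.23e-13 and 3.65e-12 in that order.

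The lowest members of the group were Serpina3f and Serpina3c. Serpina3f measured 3.41, 3.02 and 3.64 CPM in EL and 0.0195, 0.0936 and 0.0719 CPM in PT (log2 fold change -5.69, SE 0.28, edgeR adjusted p = 6.6e-10). Serpina3c had 35, 35 and 38 counts in EL and 1, 1 and 0 in PT. The ratio of its summed levels, EL over PT, was 71.8, with a 95% interval from 19.4 to 601 that covers counting error only. Serpina3k, the most abundant member of the group in liver, did not pass the filter: it had 9, 25 and 20 counts in EL and 1, 0 and 1 in PT, a ratio of 35.9 (9.47 to 304).

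The Serpina3 genes are known to differ from each other in the loop that the protease cuts, and it is shown for the members that fell together. The stretch below is coding sequence from the GENCODE M21 transcript of each gene, 75 bases that start in the hinge, the conserved strand that slides into the body of the serpin, and run through the reactive loop. Serpina3n comes first, and in the others a capital marks a base that differs from it.
Serpina3n: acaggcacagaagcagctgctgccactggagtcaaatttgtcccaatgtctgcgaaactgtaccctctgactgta
Serpina3i: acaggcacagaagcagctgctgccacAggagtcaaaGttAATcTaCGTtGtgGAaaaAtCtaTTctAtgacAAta
Serpina3m: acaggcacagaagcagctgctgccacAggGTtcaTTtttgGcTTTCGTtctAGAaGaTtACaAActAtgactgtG
Serpina3g: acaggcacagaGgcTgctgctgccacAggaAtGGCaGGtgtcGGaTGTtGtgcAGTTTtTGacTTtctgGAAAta
Serpina3c: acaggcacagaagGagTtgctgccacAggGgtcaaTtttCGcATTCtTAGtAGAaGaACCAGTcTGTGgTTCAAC
Serpina3f: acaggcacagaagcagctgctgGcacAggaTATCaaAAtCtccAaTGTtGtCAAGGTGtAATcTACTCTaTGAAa
The first 24 bases, the hinge, held 0 differences in Serpina3i and Serpina3m, 1 in Serpina3f and 2 each in Serpina3g and Serpina3c. The 51 bases after it held 19 differences in Serpina3i, 23 in Serpina3m, 26 in Serpina3g, 32 in Serpina3c and 33 in Serpina3f. The genes shown differ most in the bases after the hinge. Their log2 fold changes ran from -5.89 for Serpina3c to -4.57 for Serpina3i, and a link to the loop was not tested. Serpina3h is not shown because the hinge was not found in its longest GENCODE transcript, where the longest open frame was 513 bases. The RefSeq transcript counted for Serpina3h is a non-coding one and was not searched.

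The likeness of the genes also bears on the counts. Of the stretches of 50 bases in the transcripts, 6.9% in Serpina3n occur in at least 1 other serpin gene, as do 15.4% in Serpina3i, 16% in Serpina3g, 19.1% in Serpina3m and 24.4% in the longest Serpina3h transcript. For Serpina3c and Serpina3f the shares were 4.25% and 10.9%. How reads that match several genes were counted is not given in the sources used here, so the split between these genes is uncertain, most of all for Serpina3h and Serpina3m. In the other tested serpins the share ran from 0 to 8.53%, with the highest in Serpinb6c.

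Promoters are shown for the 3 Serpina3 genes that hold the letters of an NF-kB site there. Each promoter has 250 bases before and 50 after the RefSeq start on build GRCm38.p6, plus strand: chr12:104406458-104406757 for Serpina3n, chr12:104262872-104263171 for Serpina3i and chr12:104235897-104236196 for Serpina3g. Capitals mark the letters GGG, any 2 bases, then TTTCC, the core of an NF-kB site, and TTCNNNGAA, the core of a STAT site. Both strands were searched.
Serpina3n: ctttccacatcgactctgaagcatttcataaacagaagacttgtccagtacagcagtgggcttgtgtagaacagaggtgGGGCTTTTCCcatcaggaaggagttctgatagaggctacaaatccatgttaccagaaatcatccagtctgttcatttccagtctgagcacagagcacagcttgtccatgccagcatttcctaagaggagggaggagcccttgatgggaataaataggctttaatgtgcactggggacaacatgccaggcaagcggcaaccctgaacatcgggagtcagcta
Serpina3i: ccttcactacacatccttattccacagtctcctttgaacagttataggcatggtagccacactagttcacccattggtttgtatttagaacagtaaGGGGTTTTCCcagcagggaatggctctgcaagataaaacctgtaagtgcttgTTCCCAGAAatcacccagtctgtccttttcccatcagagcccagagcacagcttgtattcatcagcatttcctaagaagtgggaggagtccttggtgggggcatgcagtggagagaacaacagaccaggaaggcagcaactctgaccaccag
Serpina3g: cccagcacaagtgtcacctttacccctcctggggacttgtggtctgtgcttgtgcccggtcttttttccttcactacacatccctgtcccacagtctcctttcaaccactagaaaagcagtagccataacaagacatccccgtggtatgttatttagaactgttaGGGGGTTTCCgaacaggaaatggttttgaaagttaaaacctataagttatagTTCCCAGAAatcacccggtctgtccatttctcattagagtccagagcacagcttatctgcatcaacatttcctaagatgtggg
Counted from the start site of each window, the NF-kB letters begin at position -171 in Serpina3n, -154 in Serpina3i and -85 in Serpina3g. For Serpina3n and Serpina3i this start lies inside the gene span given above, so the positions depend on the start used. The STAT letters begin at -102 in Serpina3i and -33 in Serpina3g. Among the 5 Serpina3 genes with a promoter in the RefSeq table, 3 held the NF-kB letters and 3 the STAT letters, the third being Serpina3f. In 32851 promoters of this length the shares were 1.63% and 8.3%. Serpina3c and Serpina3f lacked the NF-kB letters, and both passed the filter on low values through EL. Outside the Serpina3 genes, Serpinb2 and Serpinb6a held the STAT letters. A link between the letters and the differences between EL and PT was not tested. The genes are related and lie in 1 cluster, so their matches are not independent. A match describes the letters in this window only, and no binding was measured.

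The other 18 members of clade A were not tested. Of these, 3 had no count and 15 had between 1 and 56 counts over the libraries. Serpina1b, an antitrypsin gene, had 5, 10 and 13 counts in EL and 0, 1 and 0 in PT, a ratio of 37.2 with an interval from 6.16 to 1523. Of the 10 hepatocyte markers, Apoa2, Ttr and Fgb were at 0 in every library. The sum of the whole list was low but higher in EL, with 0.529 to 0.872 CPM against 0.078 to 0.131 CPM in PT, without a test.

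Clade B was mixed. Of its 27 members, 9 were tested, 8 fell and Serpinb5 rose, with log2 fold changes from -5.87 to 1.10 and a median of -2.50. Of all genes tested with 6 libraries, 40.8% were called lower and 39.9% higher. The 6 tested genes of the cluster on chromosome 13 (chr13:32842092-34002794, 15 members) all fell. Serpinb1a, Serpinb6c and Serpinb9b there, and Serpinb2 on chromosome 1, passed the filter on low values through EL. The cluster on chromosome 1 (chr1:106861175-107608978, 12 members) had 3 tested genes, and there Serpinb5 rose while Serpinb2 and Serpinb8 fell.

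Serpinb5 (chr1:106861175-106883348) encodes maspin, a clade B member without inhibitor activity towards serine proteases that is made by normal mammary epithelium and studied as a tumour suppressor. It measured 50.5, 57.3 and 51.9 CPM in EL and 114.6, 114.6 and 112.0 CPM in PT. All PT libraries were above all EL libraries, a pattern that 41% of all genes showed. The mean rose from 53.2 ± 3.59 to 114 ± 1.47 CPM (SD, n = 3 each), a log2 fold change of 1.10 (SE 0.04, edgeR adjusted p = 6.03e-11) or 2.14-fold. Beside it, the summed basal and myoepithelial markers were 655 to 711 CPM in EL and 637 to 673 CPM in PT, with 3 of 10 markers higher and 7 lower, and the luminal markers were all higher. The part of either cell type in the rise of Serpinb5 was not tested.

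The promoter of Serpinb5 (chr1:106860925-106861224, GRCm38.p6, plus strand, 250 bases before and 50 after the start) is shown because it belongs to the single member that rose. Capitals mark the letters TGANTCA, the core of an AP-1 site.
Serpinb5: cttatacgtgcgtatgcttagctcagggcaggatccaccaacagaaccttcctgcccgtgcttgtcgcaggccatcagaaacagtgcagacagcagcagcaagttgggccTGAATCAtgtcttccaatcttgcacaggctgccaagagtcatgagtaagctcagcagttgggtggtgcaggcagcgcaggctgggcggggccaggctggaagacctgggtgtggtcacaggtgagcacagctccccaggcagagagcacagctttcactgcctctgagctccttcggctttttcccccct
The letters begin at position -140 from the start site. They also occur in the promoters of Serpinb2 and Serpinb8, the other tested genes of the cluster on chromosome 1, and in 7.81% of all promoters. No binding was measured, and a link between the letters and the rise was not tested.

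Serpinb6a (chr13:33917918-34002794), an inhibitor found in the cytoplasm of many cell types that acts on trypsin-like and granule proteases, was the highest clade B gene in both groups. It measured 190, 214 and 212 CPM in EL and 118, 121 and 119 CPM in PT. The groups did not overlap, yet the distance was small, with a log2 fold change of -0.79 (SE 0.04, edgeR adjusted p = 1.63e-09). Against a minimum change of 2-fold it was not called. Its gene overlaps neighbouring genes in RefSeq, Nqo2 and Ripk1 among them, and the strand setting of the counting is not given, so some of these reads may belong to them.

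Serpinb9, an inhibitor of granzyme B that protects lymphocytes and other cells from their own or foreign granules, measured 37.5, 33.5 and 35.5 CPM in EL and 10.5, 10.9 and 11.1 CPM in PT (log2 fold change -1.71, SE 0.06, edgeR adjusted p = 8.46e-12). Serpinb8, an inhibitor of furin and trypsin-like enzymes in the cytoplasm, measured 15.3, 15.4 and 14.8 CPM in EL and 2.79, 2.85 and 2.43 CPM in PT (log2 fold change -2.50, SE 0.08, edgeR adjusted p = 1.08e-11). Serpinb1a, which blocks neutrophil elastase and related enzymes, measured 9.78, 12.8 and 12.9 CPM in EL and 0.176, 0.225 and 0.198 CPM in PT (log2 fold change -5.87, SE 0.19, edgeR adjusted p = 7.54e-12). EL was above PT in every library for all 3 genes, and Serpinb1a fell the furthest of the clade.

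Serpinb2 (chr1:107500892-107525600), plasminogen activator inhibitor 2, is induced in macrophages and keratinocytes. It measured 3.93, 19.5 and 16.5 CPM in EL and 0.195, 0.506 and 0.144 CPM in PT. EL replicate 1 stood well below the other EL libraries but still above every PT library. The mean was 13.3 ± 8.25 CPM in EL and 0.281 ± 0.196 CPM in PT (SD, n = 3 each), a log2 fold change of -5.55 (SE 0.64, edgeR adjusted p = 3.41e-06). Without PT replicate 2 it was -6.28, and without EL replicate 1 it was -5.99.

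The remaining tested genes of clade B were low. Serpinb9b measured 3.39, 4.15 and 3.91 CPM in EL and 0.293, 0.468 and 0.198 CPM in PT, with a log2 fold change of -3.57 (SE 0.23). Serpinb6b measured 0.680 to 1.18 CPM in EL and 0.225 to 0.341 CPM in PT, with a log2 fold change of -1.59 (SE 0.29). Serpinb6c measured 0.442 to 0.755 CPM in EL and 0.0195 to 0.144 CPM in PT, with a log2 fold change of -2.99 (SE 0.50) that became -4.17 without PT replicate 3. All 3 were called lower, with edgeR adjusted p-values of 8.1e-09, 2.57e-04 and 1.11e-04 in that order. Of the 18 untested members, 8 had no count and 10 had between 1 and 46 counts in all. Serpinb1b, next to Serpinb1a, had 9, 14 and 13 counts in EL and 4, 4 and 2 in PT. Serpinb9c had 0, 0 and 3 counts in EL and 5, 6 and 8 in PT, and Serpinb9g 2, 0 and 2 against 1, 5 and 7, so these had more counts in PT, without a test. Serpinb12 had 3, 2 and 8 counts in EL and 5, 4 and 9 in PT.

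**Figure D2:**
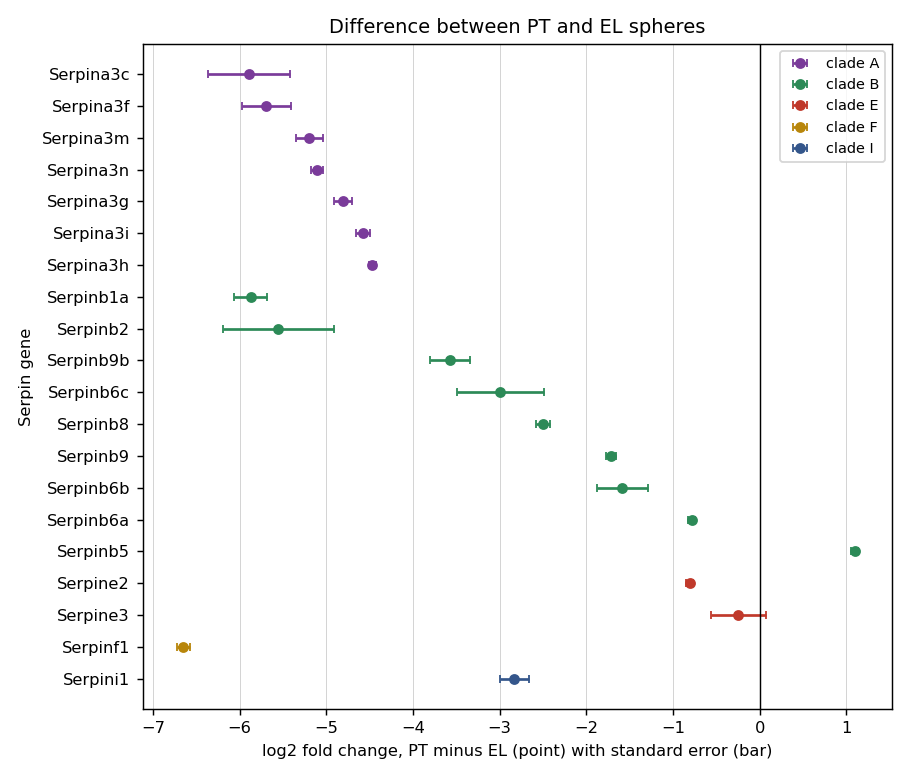
Log2 fold change (PT minus EL) of 20 tested serpins with its standard error as a bar, coloured by clade; all but Serpine3 passed an edgeR adjusted p of 0.05. Clade A lies between -5.89 and -4.47, while clade B runs from -5.87 for Serpinb1a to 1.10 for Serpinb5.

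Clade E holds inhibitors of the plasminogen activators and of thrombin. Serpine2 (chr1:79794317-79858665), protease nexin 1, inhibits thrombin and the plasminogen activators at the cell surface. It measured 414, 366 and 400.1 CPM in EL and 227, 224 and 223 CPM in PT. The libraries of each group were close and the groups did not overlap. The mean fell from 393 ± 24.8 to 225 ± 2.02 CPM (SD, n = 3 each), a log2 fold change of -0.81 (SE 0.04, edgeR adjusted p = 8.58e-10). Like Serpinb6a, it was not called against a minimum change of 2-fold. Serpine3, a member of the clade with little known function, measured 0.344, 0.780 and 0.523 CPM in EL and 0.410, 0.581 and 0.395 CPM in PT. Its groups overlapped, with a log2 fold change of -0.25 (SE 0.32, edgeR adjusted p = 0.49), and its gene overlaps Ints6.

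The spread of Serpinb2 over the EL libraries was unusual. Among 11759 tested genes with a mean EL count of at least 100, the median coefficient of variation over the EL libraries was 4.29%. That of Serpinb2 was 62.0%, the highest of all these genes. The level in EL replicate 1 was 0.218 times the mean of the other EL libraries for Serpinb2, and only 22 of the genes (0.187%) were below 0.6. Among the other reported serpins of this set, the ratio was 0.740 for Serpini1, 0.759 for Serpinb1a, 0.801 for Serpina3m and 0.841 for Serpinb9b. It was 0.859 for Serpina3n, 0.892 for Serpinb6a, 0.926 for Serpinb5, 0.993 for Serpina3g and 0.998 for Serpina3i. Serpinb8 had 1.01, Serpina3f 1.03 and Serpinb9 1.09. Serpinf1 had 1.02, Serpine2 1.08, Plat 1.06 and Plau 1.13. Of 11 macrophage markers, 10 were lower in that library than in the mean of the others, with ratios from 0.662 for Mrc1 to 0.908 for Cd163, and Fcgr1 was higher with 1.35. The macrophage list sum was 549 to 728 CPM over the EL libraries. Their part in the spread was not tested. In PT, where Serpinb2 was lower, the macrophage sum was 1016 to 1135 CPM, and 10 of 11 markers were higher.

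**Figure D3:**
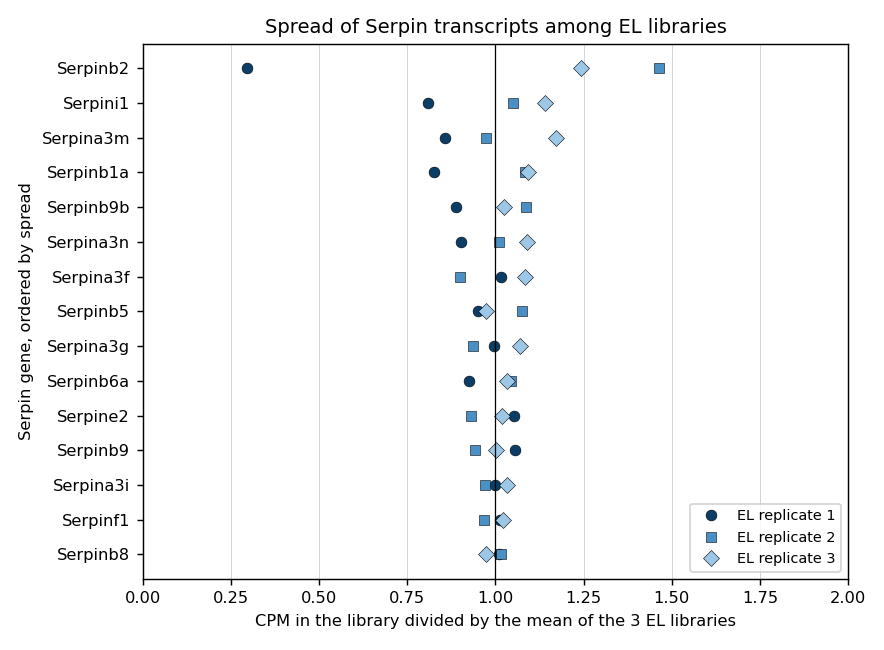
CPM of each EL library divided by the mean of the 3 EL libraries, for serpins with a mean EL count of at least 100 in the 6-library fit. EL replicate 1 lies far below the other libraries for Serpinb2, with a coefficient of variation of 62.0%.

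Clades C, D and I were thinly represented. Serpinc1, antithrombin, had 11, 11 and 7 counts in EL and 9, 8 and 7 in PT, and Serpind1, heparin cofactor II, had 4, 4 and 0 against 0, 3 and 2, so neither was tested. Serpini1 (chr3:75557493-75642523), neuroserpin, an inhibitor of tissue plasminogen activator best known from neurons, measured 5.01, 6.49 and 7.05 CPM in EL and 0.839, 1.01 and 0.755 CPM in PT. All EL libraries were above all PT libraries, with a log2 fold change of -2.83 (SE 0.17, edgeR adjusted p = 4.65e-09). Serpini2 had no count.

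Since members fell by unequal amounts, the makeup of the serpin transcripts differed between the groups. The comparison between genes was made per length, in RPKM, for 19 of the tested genes, without Serpina3h, which had no matched transcript length. Their summed level was 1359.9 ± 42.2 RPKM in EL and 239 ± 0.279 RPKM in PT (SD, n = 3 each). Among these genes in EL, Serpinf1 was the highest with 718 RPKM, followed by Serpina3n with 239, Serpine2 with 178 and Serpinb6a with 124 RPKM. In PT, Serpine2 was the highest with 102 RPKM, followed by Serpinb6a with 71.9, Serpinb5 with 44.2, Serpinf1 with 7.14 and Serpina3n with 6.94 RPKM. Serpinf1 and Serpina3n overlapped within PT, so their order there is not separated.

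As a share of that sum, Serpinf1 went from 52.8% to 2.99% and clade A from 21.1% to 3.62%. The clade A share leaves out Serpina3h, which had a mean of 242 CPM in EL and 10.9 CPM in PT. Clade B went from 12.9% to 50.6%. The larger share of clade B in PT does not mean higher levels of its members, since only Serpinb5 rose. Serpinb5 went from 1.52% to 18.5%, Serpinb6a from 9.12% to 30.1% and Serpine2 from 13.1% to 42.6%. These shares are a description and were not tested.

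**Figure D4:**
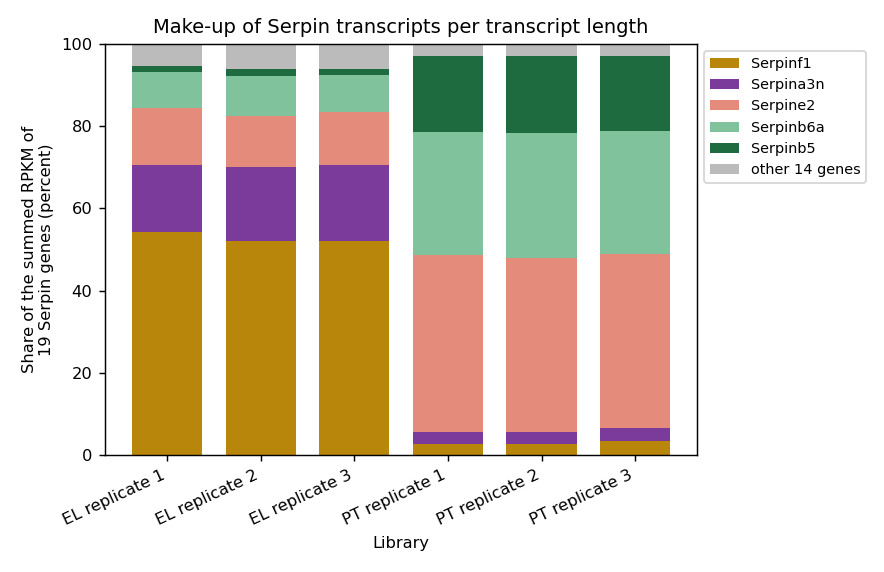
Share of each serpin in the summed RPKM of 19 genes with a transcript length, for every library. Serpinf1 and Serpina3n take up most of the EL columns (52.8% and 17.5% on average), and Serpine2, Serpinb6a and Serpinb5 most of the PT columns (42.6%, 30.1% and 18.5%).

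The proteases that serpins act on, and other protease inhibitors, were compared in the same fits. Over all genes tested, 40.8% were called lower and 39.9% higher, and each list is to be read beside these shares. Genes of plasminogen activation were mostly lower in PT: of 13 genes, 10 were tested, 9 fell and none rose, with a median log2 fold change of -4.13. Plat, tissue plasminogen activator and a target of Serpine2 and Serpini1, fell from 345 ± 14.6 to 6.48 ± 0.518 CPM. Lrp1, the receptor that clears serpin and protease complexes, fell by 5.27 on the log2 scale. Mmp3 and Mmp9, matrix metalloproteinases activated downstream of plasmin, fell by 7.60 and fell by 5.14. The exception was Plaur, the urokinase receptor, named after its values were seen, with 38.0 ± 3.41 CPM in EL and 36.6 ± 1.97 CPM in PT (edgeR adjusted p = 0.44). Serpine2, Serpinb2 and Serpini1, inhibitors of this system, and the activator Plat were thus all lower in PT.

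Coagulation genes and thrombin receptors had 14 of 20 genes tested, of which 9 fell and 3 rose, with a median of -1.66. The thrombin receptor F2r fell by 2.70 on the log2 scale, the protein S gene Pros1 fell by 2.31 and the thrombomodulin gene Thbd fell by 4.06. F2rl1, a receptor opened by trypsin-like proteases, rose from 37.5 ± 1.38 to 148 ± 1.29 CPM. Granule serine proteases of leukocytes, targets of Serpina3, Serpinb1 and Serpinb9 proteins, were low: 5 of 19 genes were tested, 4 fell and 1 rose, and their sum was 27.0 to 29.9 CPM in EL and 3.50 to 4.02 CPM in PT. The mast cell tryptase Tpsab1 had a log2 fold change of -4.90, the neutrophil protease Prtn3 of -2.92, the basophil protease Mcpt8 of -3.96 and the granzyme Gzme of -3.80. Beside them, all 3 tested mast cell markers were lower in PT, with a list sum of 3.66 to 3.73 CPM in EL and 0.162 to 0.234 CPM in PT. The 2 tested lymphocyte markers were lower too. Of 4 tested neutrophil markers, 2 were higher and 2 lower. The neutrophil sum was 913 to 1093 CPM in EL and 1628 to 1757 CPM in PT. The part of these cell types was not tested.

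Cathepsins, lysosomal proteases that a few serpins inhibit, were all tested: of 14 genes, 10 fell and 2 rose, with a median of -0.98. The log2 fold change was -5.91 for Ctsk, -2.12 for Ctsf, -1.73 for Ctsc and -1.39 for Ctsl. Kallikreins, secreted proteases of epithelia, went the other way: of 7 tested genes among 13, 6 rose, none fell and the median was 1.21. Klk6 rose by 2.33, Klk14 by 1.72, Klk8 by 1.41 and Klk10 by 1.21, from a sum over the list of 19.8 to 21.3 CPM in EL to 63.6 to 76.9 CPM in PT.

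Of the membrane and secreted serine proteases, 15 were tested, 6 rose and 7 fell, shares near those of all genes, with a median of -0.29. The log2 fold change was -5.79 for Htra3, -5.85 for Fap, -2.67 for Htra1 and 1.88 for Tmprss2. Of the inhibitors outside the serpin family, 20 were tested, 7 rose, 6 fell and 7 were not called, with a median of 0.05. Tfpi2 and Tfpi, inhibitors of tissue factor and plasmin, fell by 6.30 and fell by 4.85, and the cystatin gene Cst3 fell by 1.91. Spint2, a Kunitz inhibitor of epithelial membrane proteases, rose from 298 ± 6.19 to 972 ± 13.9 CPM. The medians are given for description, and no difference between the lists was tested.

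**Figure D5:**
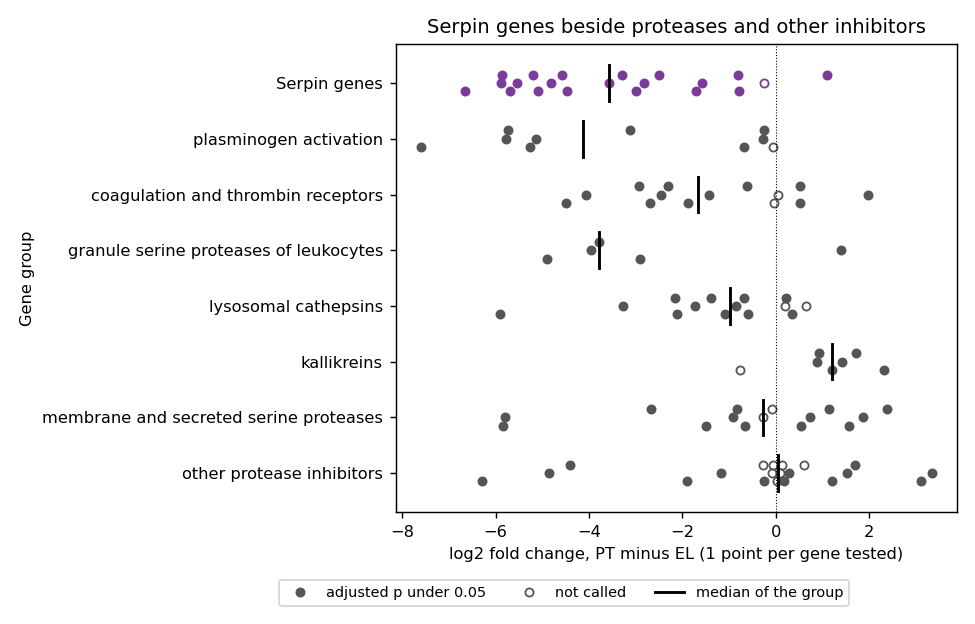
Log2 fold change (PT minus EL) of every tested gene of the serpins and of 7 groups of proteases and other inhibitors; filled points passed an edgeR adjusted p of 0.05, open points did not, and the bar is the median. The serpin median is -3.57 and the kallikrein median 1.21; Vtn, at 0 in PT, is drawn at its bound of -5.78, against 3 counts over the group.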

How the data were processed

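Serpin transcripts were measured by RNA sequencing in 3 EL and 3 PT mammosphere libraries, grouped by the labels. The authors deposited raw, whole-number counts, 1 row per RefSeq transcript, per the file headers and values. Per the submitters' processing notes, STAR, featureCounts and DESeq2 were used, with builds mm10 and hg19. Not given in the sources used here are versions, the strand setting and the treatment of reads with several matches.

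For each symbol the transcript with the highest mean count was kept, over rows present in all 6 tables (19893 symbols). The 6 members whose top transcript is absent from EL replicate 1 were fitted in the 5 complete tables (24063 symbols). Genes were filtered by filterByExpr, scaled by TMM and tested with edgeR 4.0.16 in R 4.3.3 (quasi-likelihood, Benjamini-Hochberg over all genes, threshold 0.05), PT minus EL. The filter kept 13844 and 15406 genes. The standard error (SE) is the log2 fold change divided by the root of F. One count was worth 0.018 to 0.0252 CPM, and 3 counts, the limit that a count of 0 allows, 0.0539 to 0.0755 CPM. Intervals cover counting error only. The test was checked on simulated counts.

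RPKM used GENCODE M21 transcript lengths matched by RefSeq accession (20 members, of which 19 were summed). All 61 members matched the RefSeq gene table (GRCm38.p6), and 17 of the 21 tested members had a promoter there. Members with a mean count of at least 100 in a group were given per library, other tested members with at least 20 by their values, untested members by their counts where they carry reads, and up to 4 genes of smallest p from each list. Other genes (Plaur, Plau, Vtn, single macrophage, lung and hepatocyte markers) were named after their values were seen. The members and lists were chosen with earlier results of these data known. Alternatives were other scalings, filters, transcripts and tools (DESeq2 1.42.0, limma-voom 3.58.1), a 2-fold minimum, a replicate block and each library left out. The values of 1 tested member are not reported here; it stays in the counts and medians.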

Additional observations from a re-analysis of the deposited data

How the results depend on the processing

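The 20 members tested in 6 libraries and Serpina3h kept their direction and call in every alternative run, apart from Serpinb6a, Serpine2 and the sign of Serpine3. Under a minimum of 2-fold, Serpinb6a and Serpine2 were no longer called, which left 1 clade E gene called lower in place of 2, and 13 list genes called higher in place of 25. With no filter beyond 1 count, 10 clade A genes were called lower in place of 6. Serpine3, never called, ranged from -0.50 to 0.09 in log2 fold change, the latter without EL replicate 2. Scaling by library totals alone moved the median log2 fold change of all genes from 0.0049 to 0.25 and the genes called higher and lower from 5527 and 5646 to 7911 and 4111, yet 1 member was still called higher and 18 lower, and Serpinb5 stood at 1.34. A minimum of 2-fold left 1010 genes higher and 2391 lower. Same-numbered EL and PT libraries correlated at 0.0872, 0.0531 and 0.0288 in their deviations, and 2 of the 3 EL libraries correlated best with their own number. The labels give no pairing, and correlations this small do not settle whether there is one. With the replicate block, 1 member was called higher and 18 lower, 6 of clade A, 8 of clade B and 2 of clade E, with 26 list genes higher and 46 lower and 5539 and 5664 genes in all. Depth left 28 members with counts outside the test. Without that filter 23 members were called lower in place of 18.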

Other observations

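The genes with the lowest level in EL replicate 1, relative to the other EL libraries, were read off after their values were seen, among 11759 tested genes with a mean EL count of at least 100. Serpinb2 came first with a ratio of 0.218, followed by Nos2, the inducible nitric oxide synthase, with 0.326 and Tnfrsf9, a receptor induced on activated leukocytes, with 0.377. The next were Rarres2, the gene of the chemoattractant chemerin, with 0.504, A2m, a broad protease trap, with 0.516 and Usp18, an interferon-induced enzyme, with 0.520. A2m is a protease inhibitor outside the serpin family and was higher in PT, with 4.43 ± 1.61 CPM in EL and 44.9 ± 1.94 CPM in PT (SD, n = 3 each). The median ratio over the 11759 genes was 1.00.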
